A study of Mus musculus with 15 samples.

Results

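The genes described here encode subunits of respiratory complexes I to IV from the cell nucleus. They are 56 genes listed by symbol, and all 56 were found among the 46078 genes of the count table: 35 Nduf genes of complex I, 4 Sdh genes of complex II, 9 genes of complex III (8 Uqcr genes and Cyc1) and 8 Cox genes of complex IV. All 56 also passed the filter on low counts, which kept 18974 genes for testing. Poly(A) RNA was sequenced from brain tissue of 15 mice, taken after perfusion from 1 hemisphere; the labels name no brain region. There were 3 groups of 5 mice. Wild-type (WT) mice and 1 group of APP-PS1 mice received PBS, and the other APP-PS1 group received an antibody that binds CD8a, the co-receptor of cytotoxic T cells. APP-PS1 mice model amyloid deposition: their neurons express, from the prion protein promoter, the Swedish mutant of a mouse-human hybrid precursor of amyloid (Mo/HuAPP695swe) together with the dE9 mutant of human presenilin 1. Treatment of mice of either sex began at 12 months of age and took 4 weeks, with 10 intraperitoneal injections of 0.8 mg of antibody or of 100 µL of PBS. No WT mice given the antibody and no mice given a control antibody were analysed here.

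The respiratory chain of the inner mitochondrial membrane passes electrons from NADH (complex I) and succinate (complex II) through ubiquinone to complex III, and from there through cytochrome c to oxygen at complex IV. Complexes I, III and IV pump protons as they do so, and the gradient drives ATP synthesis by complex V. Most subunits are encoded in the nucleus and imported, whereas the core of the membrane arm of complex I, cytochrome b and the catalytic core of complex IV are encoded by mitochondrial DNA, so each of these complexes needs transcripts from both genomes. Neurons rely on this pathway for the ATP spent on ion pumping and synaptic transmission.

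Libraries held between 17736524 and 36485809 counts in genes. The choroid plexus transcript Ttr exceeded 1000 CPM (counts relative to a library size scaled by TMM) in 5 libraries: WT replicates 3 and 5, APP-PS1 PBS replicates 2 and 5 and anti-CD8a replicate 1. In 1 library, APP-PS1 PBS replicate 1, Xist and the Y-linked genes went against the labelled sex. By the labels there were 1 male and 4 female WT mice, and 3 males and 2 females in each APP-PS1 group. Animal numbers began with 83 in 3 mice and with 85 in 2 mice of every group; the labels do not say what these number series stand for. Markers of neurons, astrocytes, oligodendrocytes and microglia were detected in every library, as the tissue label implies. Of the muscle markers, Ckm had at most 8 counts in any library and Myl2 at most 25. Acta1, Myh6 and Tnnt2 had 54 to 184, 73 to 216 and 42 to 213 counts. Each library is 1 mouse, so n = 5 per group throughout.

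Within the chain the transcript levels of the subunits were far from equal. Levels are compared between genes only as CPM per kilobase, here of the merged exons of each gene in GENCODE M21. Cox4i1, the largest nuclear subunit of complex IV and an early partner in its assembly, had the highest level, 229 CPM per kilobase as the mean of 15 libraries. Ndufb2, a small accessory subunit of the membrane arm of complex I, had the lowest at 7.46. Such values rest on the annotated length, which for Ndufb2 is 5628 bases of merged exons. Which of these exons are used in brain was not tested. In complex I the highest level was that of Ndufa1, a small X-linked membrane arm subunit, at 154. In complex II the flavoprotein gene Sdha, which oxidises succinate, was at 105 and the membrane anchor gene Sdhc at 20.96. In complex III the hinge protein gene Uqcrh was at 162 and Uqcrq, which encodes a small ubiquinone-binding subunit, at 28.7. In complex IV Cox5a was lowest at 14.7. Medians per complex were 47.2 for complex I, 54.4 for complex II, 75.1 for complex III and 81.9 for complex IV, so transcripts of complex IV stood highest per length. Dividing by the principal transcript alone, an alternative chosen after seeing the data, gave medians of 73.8, 73.3, 101 and 157. The lowest and highest genes were then the same in each complex except in complex I, where Ndufa4 was highest at 319; its protein, named for complex I, has since been assigned to complex IV.

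**Figure D1:**
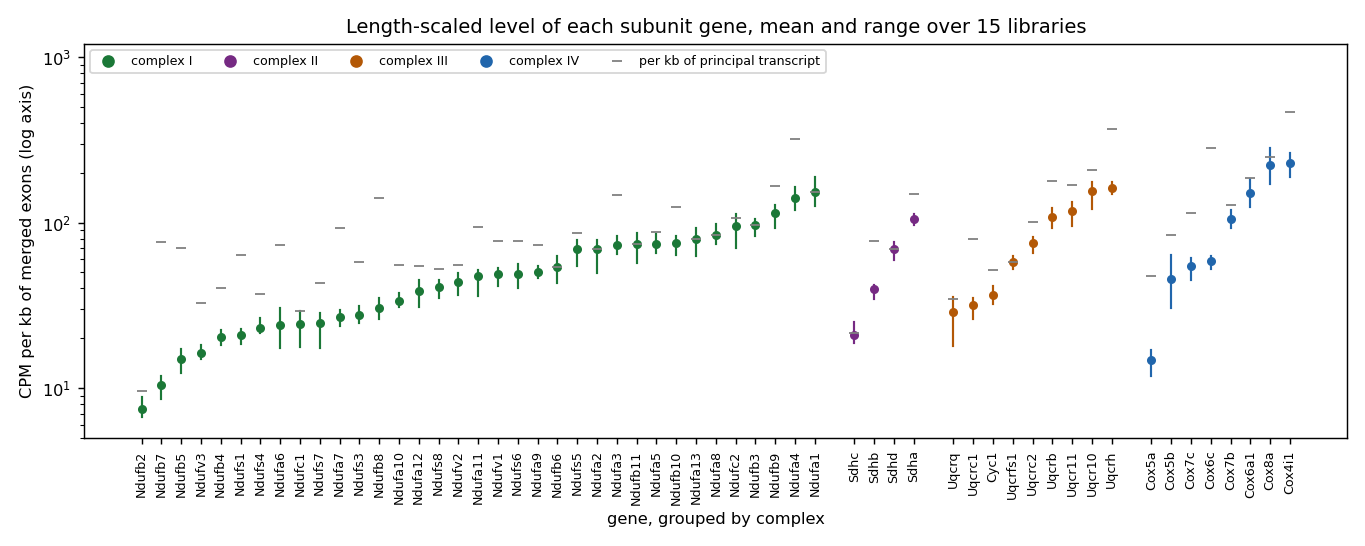
Level of each of the 56 subunit genes in CPM per kilobase of merged exons (log axis), by complex. Points are means of 15 libraries, vertical lines run from the lowest to the highest library, and grey dashes give the mean per kilobase of principal transcript; Cox4i1 stands highest at 229 and Ndufb2 lowest at 7.46.

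The subunit genes are spread over the genome. In GENCODE M21 (GRCm38) 53 lie on autosomes and 3 on the X chromosome (Ndufa1, Ndufb11 and Cox7b), on 18 chromosomes in all. Only 2 pairs lay within 200 kb of each other: Ndufs7 and Uqcr11 on chromosome 10, 146.2 kb apart, and Ndufs8 and Ndufv1 on chromosome 19, 94.6 kb apart. For 20 members the gene overlapped another on the opposite strand and for 7 one on the same strand. These overlaps are of whole genes, introns included, and overlap of exons was not tested. The sources used here do not give the strand setting of the counting. It is thus not known how reads were counted where exons of a member and of an opposite-strand partner may overlap. The opposite-strand overlaps are those of Ndufa2, Ndufa3, Ndufa9, Ndufa11, Ndufa13, Ndufb2, Ndufb5, Ndufb6, Ndufb11, Ndufs1, Ndufs3, Ndufs6, Ndufv2, Sdha, Uqcrb, Uqcrc2, Uqcrh, Cox4i1, Cox5a and Cox6c. The same-strand overlaps are those of Ndufa10, Ndufa13, Ndufb2, Ndufb8, Ndufc2, Cox4i1 and Cox7c. Processed copies and close paralogs of members that were listed by symbol had few counts, at most 14 in any library for Cox7b2 and at most 7 for the others.

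Levels of the 56 genes varied together from library to library, and more so among APP-PS1 mice. For each library the log2 CPM of every member was taken relative to its mean over the 15 libraries and averaged over the 56. WT libraries 1 to 5 had averages of 0.086, 0.023, 0.088, 0.028 and 0.11, all above 0 (SD 0.040). APP-PS1 PBS libraries had -0.060, 0.024, -0.19, 0.090 and -0.13 (SD 0.11). The anti-CD8a libraries had -0.064, -0.035, -0.12, 0.15 and -0.0062 (SD 0.10). Of the 10 APP-PS1 libraries 7 lay below each WT library, whereas APP-PS1 PBS replicate 2 lay level with the lowest WT library, APP-PS1 PBS replicate 4 among the higher ones and anti-CD8a replicate 4 above all 5. A few libraries held most of the extreme values. The lowest value of the 15 was in APP-PS1 PBS replicate 3 for 24 members, in APP-PS1 PBS replicate 5 for 16 and in anti-CD8a replicate 3 for 11. The highest was in anti-CD8a replicate 4 for 25 members, where all 56 lay above their own mean, and in WT replicate 5 for 10. No WT library was the lowest for any member.

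**Figure D2:**
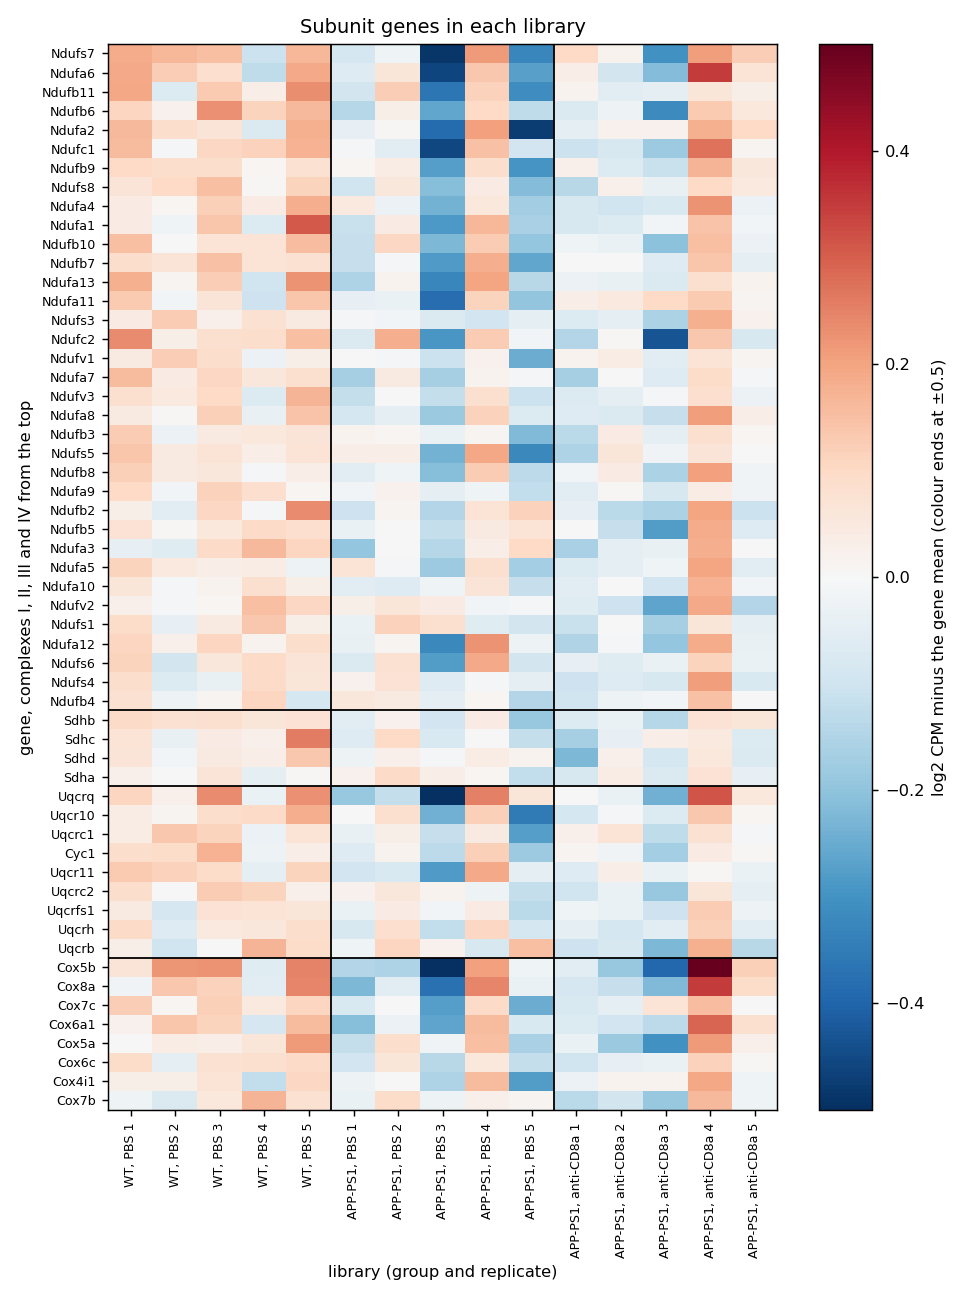
Each row is a subunit gene and each column a library; colour is log2 CPM minus the gene's mean over the 15 libraries, with complexes I, II, III and IV separated by horizontal lines. Whole columns share a colour: APP-PS1 PBS replicates 3 and 5 and anti-CD8a replicate 3 are mostly low, and all 56 genes in anti-CD8a replicate 4 are above their mean.

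WT mice had the highest group average in each complex taken alone. The APP-PS1 PBS group had the lowest except in complex II, where the treated group did. For complex I the library averages were 0.070 ± 0.042 in WT mice, -0.058 ± 0.12 in the APP-PS1 PBS group and -0.012 ± 0.10 in the treated group (SD, n = 5 each). For complex IV they were 0.070 ± 0.059, -0.064 ± 0.14 and -0.0062 ± 0.16. Complex II had the smallest SDs within the APP-PS1 groups but not within WT mice, with 0.052 ± 0.044, -0.018 ± 0.063 and -0.035 ± 0.073, and complex III gave 0.067 ± 0.038, -0.045 ± 0.10 and -0.022 ± 0.090. In each complex the averages of the 3 groups overlapped. The SD of log2 CPM within a group was larger in APP-PS1 mice given PBS than in WT mice for 47 members (83.9%), against 59.3% of all genes tested, with median SDs over members of 0.129 and 0.0714. It was larger in treated than in WT mice for 45 members (80.4%), against 53.9% of all genes; the difference in spread was not tested. Sdha was the steadiest member (SD of log2 CPM 0.0616 over 15 libraries) and Cox5b, whose protein binds zinc in complex IV, the most variable (0.271).

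**Figure D3:**
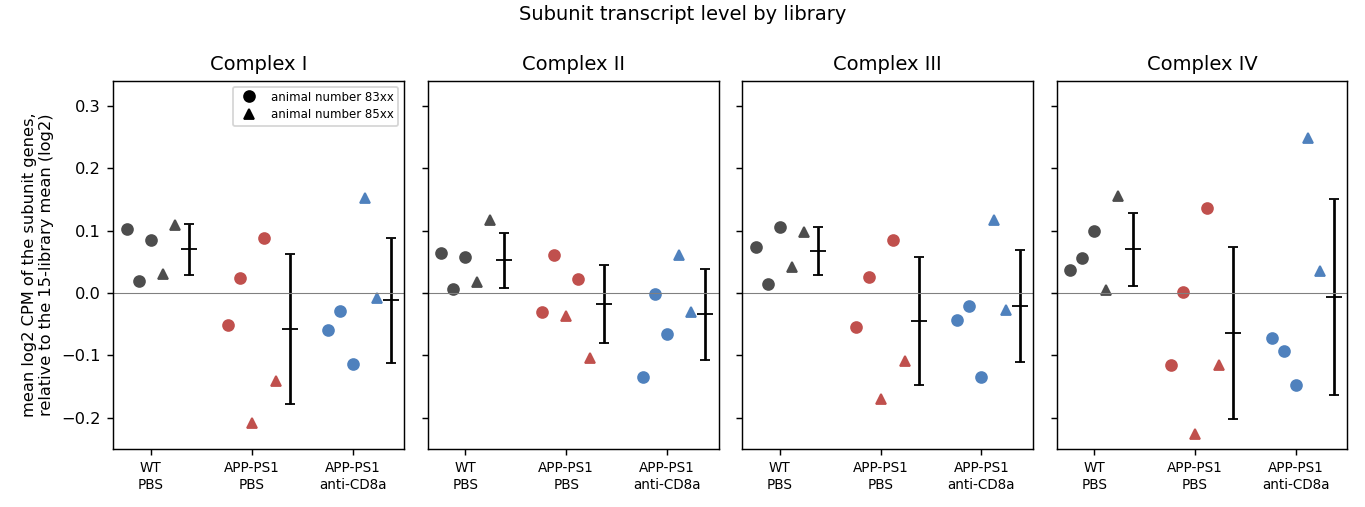
Mean log2 CPM of the subunit genes of each complex in each library, relative to the 15-library mean; circles are mice numbered from 83, triangles from 85, and bars give the group mean ± SD (n = 5). The groups overlap in every complex, and the 2 APP-PS1 PBS mice numbered from 85 lie low, whereas 1 treated mouse numbered from 85 lies highest in complexes I, III and IV.

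Reads outside annotated exons enter the share of reads without a feature. This share was lowest in anti-CD8a replicate 4 (19.97%), where the members were highest, and it was 20.3 and 20.7% in WT replicates 1 and 5. In the 3 libraries with the lowest member averages it was 22.7, 25.1 and 24.3%, and in APP-PS1 PBS replicate 1 and anti-CD8a replicate 1, with averages of -0.060 and -0.064, it was 23.5 and 23.97%. The highest share, 25.9%, was in anti-CD8a replicate 5 with an average of -0.0062, and WT replicate 3 had 23.7% with an average of 0.088. By group it was 21.7 ± 1.34% for WT, 23.1 ± 1.33% for APP-PS1 with PBS and 23.2 ± 2.30% for APP-PS1 with antibody (SD, n = 5 each). Its part in the member values was not tested. The 56 genes together held 0.555 ± 0.018% of the counts for WT, 0.524 ± 0.037% for APP-PS1 with PBS and 0.530 ± 0.038% for APP-PS1 with antibody.

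The first comparison concerned genotype: APP-PS1 against WT mice, both without antibody. Every subunit gene had a lower estimate in APP-PS1 than in WT mice, 56 of 56, where 53.1% of all genes tested had a lower one. The differences were small, with a median log2 fold change of -0.13, or -8.31%, against a median of -0.011 over all genes tested. The range ran from -0.28 for Cox5b to -0.017 for Sdha. None of the 56 passed an adjusted p of 0.05 in edgeR's quasi-likelihood test, in which 1.03% of all genes passed, and none passed in DESeq2, in which 1.89% did. At an unadjusted p under 0.05, 14 members were lower in edgeR (background 6.02%) and 15 in DESeq2, and none was higher. The smallest adjusted p was 0.276 in edgeR and 0.213 in DESeq2. The groups did not overlap in 2 members, Sdhb and Ndufs3, both lower in APP-PS1 mice, against 1.06% of all genes that were lower without overlap. Medians per complex were -0.13 for complex I, -0.084 for complex II, -0.11 for complex III and -0.15 for complex IV. With relative log expression factors the median over members was -0.12 and that over all genes -0.0066, and with library size alone they were -0.11 and 0.0047. In bulk tissue, fewer cells of a type and less RNA per cell cannot be told apart.

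In complex I, 10 of 35 members were lower at an unadjusted p under 0.05. Electrons enter at Ndufv1, the flavin-binding subunit that oxidises NADH. Its levels were 132, 140.0, 137, 126 and 131 CPM in WT mice and 129, 128, 119, 130.4 and 108 CPM in APP-PS1 mice given PBS, a log2 fold change of -0.13 (SE 0.054, BH-adjusted p = 0.366) in edgeR. APP-PS1 replicates 3 and 5 lay below the WT range and the other 3 within it. Ndufs8, an iron-sulfur subunit of the arm that reduces ubiquinone, was at 54.9, 56.3, 58.4, 52.8 and 56.7 CPM in WT mice. In APP-PS1 mice it was at 49.1, 54.6, 45.4, 54.1 and 45.2 CPM, for a log2 fold change of -0.17 (SE 0.066, BH-adjusted p = 0.335) in edgeR. Replicates 2 and 4 lay within the WT range and replicates 1, 3 and 5 below it. Ndufs3, a core subunit of the same arm, had 62.1, 65.9, 61.4, 63.7 and 62.3 CPM in WT mice and 60.0, 59.9, 57.5, 56.5 and 58.5 CPM in APP-PS1 mice. All 5 APP-PS1 libraries lay below all 5 WT libraries, with a log2 fold change of -0.14 (SE 0.054, BH-adjusted p = 0.349) in edgeR.

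Accessory subunits of complex I gave some of the larger estimates. Ndufb11, an X-linked subunit of the membrane arm, had 62.6 ± 9.82 against 71.9 ± 5.98 CPM (SD, n = 5 each) and a log2 fold change of -0.22 (SE 0.092, BH-adjusted p = 0.365) in edgeR. Ndufb6, of the same arm, had 33.6 ± 3.36 against 38.7 ± 2.06 CPM (SD, n = 5 each) and a log2 fold change of -0.22 (SE 0.087). For Ndufa4 the log2 fold change was -0.17 (SE 0.071), with 199.5, 195, 211, 199.9 and 220.1 CPM in WT and 201, 190.2, 165, 201 and 172 CPM in APP-PS1 mice. In Ndufa4 replicates 3 and 5 were again the low APP-PS1 libraries, and the other 3 lay in or just under the WT range. The remaining electron carriers of complex I did not reach an unadjusted p of 0.05. Ndufs7, which holds the last iron-sulfur cluster before ubiquinone, had the lowest estimate of complex I, -0.26 (SE 0.12), with 47.8, 47.2, 46.6, 39.0 and 47.1 CPM in WT and 39.5, 41.4, 30.0, 48.7 and 33.5 CPM in APP-PS1 mice. Its APP-PS1 values spread widely, from the lowest to the highest of these 10 libraries. Ndufs1, the large iron-sulfur subunit, had a log2 fold change of -0.074 (SE 0.055).

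Complex II has 4 subunits, all encoded in the nucleus, and all 4 had lower estimates, from -0.15 for Sdhb to -0.017 for Sdha. Differences between them were not tested. Sdhb, the iron-sulfur subunit that takes electrons from the flavin of Sdha to ubiquinone, had the smallest p of the whole list. It was at 94.2, 92.7, 93.1, 91.7 and 92.6 CPM in WT mice, within a narrow band, and at 84.7, 89.3, 82.4, 90.6 and 77.2 CPM in APP-PS1 mice given PBS. Every APP-PS1 value lay below every WT value. The log2 fold change was -0.15 (SE 0.052, BH-adjusted p = 0.276) in edgeR, with an unadjusted p of 0.0115. Sdha, its partner, had 441, 432, 452, 419 and 435 CPM in WT and 439.6, 462, 442, 436 and 397 CPM in APP-PS1 mice and a log2 fold change of -0.017 (SE 0.052). The APP-PS1 values of Sdha lay both above and below the WT range. The membrane anchors Sdhc and Sdhd had log2 fold changes of -0.13 (SE 0.063) and -0.043 (SE 0.052).

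In complex III the core protein gene Uqcrc1 and the small accessory subunit gene Uqcr10 were lower at an unadjusted p under 0.05. Uqcrc1 was at 135, 144, 141, 128 and 137 CPM in WT and 128, 134, 121, 135 and 108 CPM in APP-PS1 mice, a log2 fold change of -0.15 (SE 0.062, BH-adjusted p = 0.369) in edgeR. Its APP-PS1 replicates 2 and 4 lay within the WT range and replicate 5 far below it. Uqcr10 was at 92.4, 91.0, 95.7, 96.2 and 102 CPM in WT and 90.05, 95.2, 76.2, 97.9 and 70.5 CPM in APP-PS1 mice, a log2 fold change of -0.18 (SE 0.081, BH-adjusted p = 0.421) in edgeR. Here replicates 3 and 5 lay far below the WT range, replicate 1 just below it and the other APP-PS1 libraries within it. The electron carriers of this complex had log2 fold changes of -0.12 (SE 0.064) for Cyc1, cytochrome c1, and -0.074 (SE 0.051) for Uqcrfs1, the Rieske iron-sulfur protein. The second core protein gene, Uqcrc2, gave -0.10 (SE 0.051).

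In complex IV Cox7c, a small membrane subunit, was lower at an unadjusted p under 0.05. It was at 67.4, 62.2, 67.1, 63.9 and 66.5 CPM in WT and 58.7, 61.8, 51.1, 66.1 and 52.1 CPM in APP-PS1 mice, for a log2 fold change of -0.17 (SE 0.072, BH-adjusted p = 0.376) in edgeR, and replicates 3 and 5 were again low while replicate 4 lay in the WT range. Cox5b had the largest estimate of the list and also a large error, -0.28 (SE 0.15, BH-adjusted p = 0.504) in edgeR. Its levels were 74.3, 82.8, 83.04, 68.2 and 84.5 CPM in WT and 64.2, 63.9, 48.2, 82.1 and 70.0 CPM in APP-PS1 mice, which overlapped, since replicates 4 and 5 lay in the WT range. Cox6c had a log2 fold change of -0.11 (SE 0.056), Cox5a of -0.13 (SE 0.082) and Cox4i1 of -0.088 (SE 0.077).

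The number of members below an unadjusted p of 0.05 hung on single libraries. It was 40 without APP-PS1 PBS replicate 4 and 1 without APP-PS1 PBS replicate 5. It was 12, 19 and 5 without APP-PS1 PBS replicates 1, 2 and 3, and 7, 9, 4, 18 and 8 without WT replicates 1 to 5. The direction held: 54 to 56 members had a lower estimate whichever library was left out, and the median stayed between -0.19 and -0.10. Without the 5 libraries rich in Ttr, 1 member was below an unadjusted p of 0.05, 52 had a lower estimate and the median was -0.092. Among mice numbered from 83 (3 against 3) the median difference was -0.043 with 43 of 56 members lower, and among those numbered from 85 (2 against 2) it was -0.21 with all 56 lower.

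**Figure D4:**
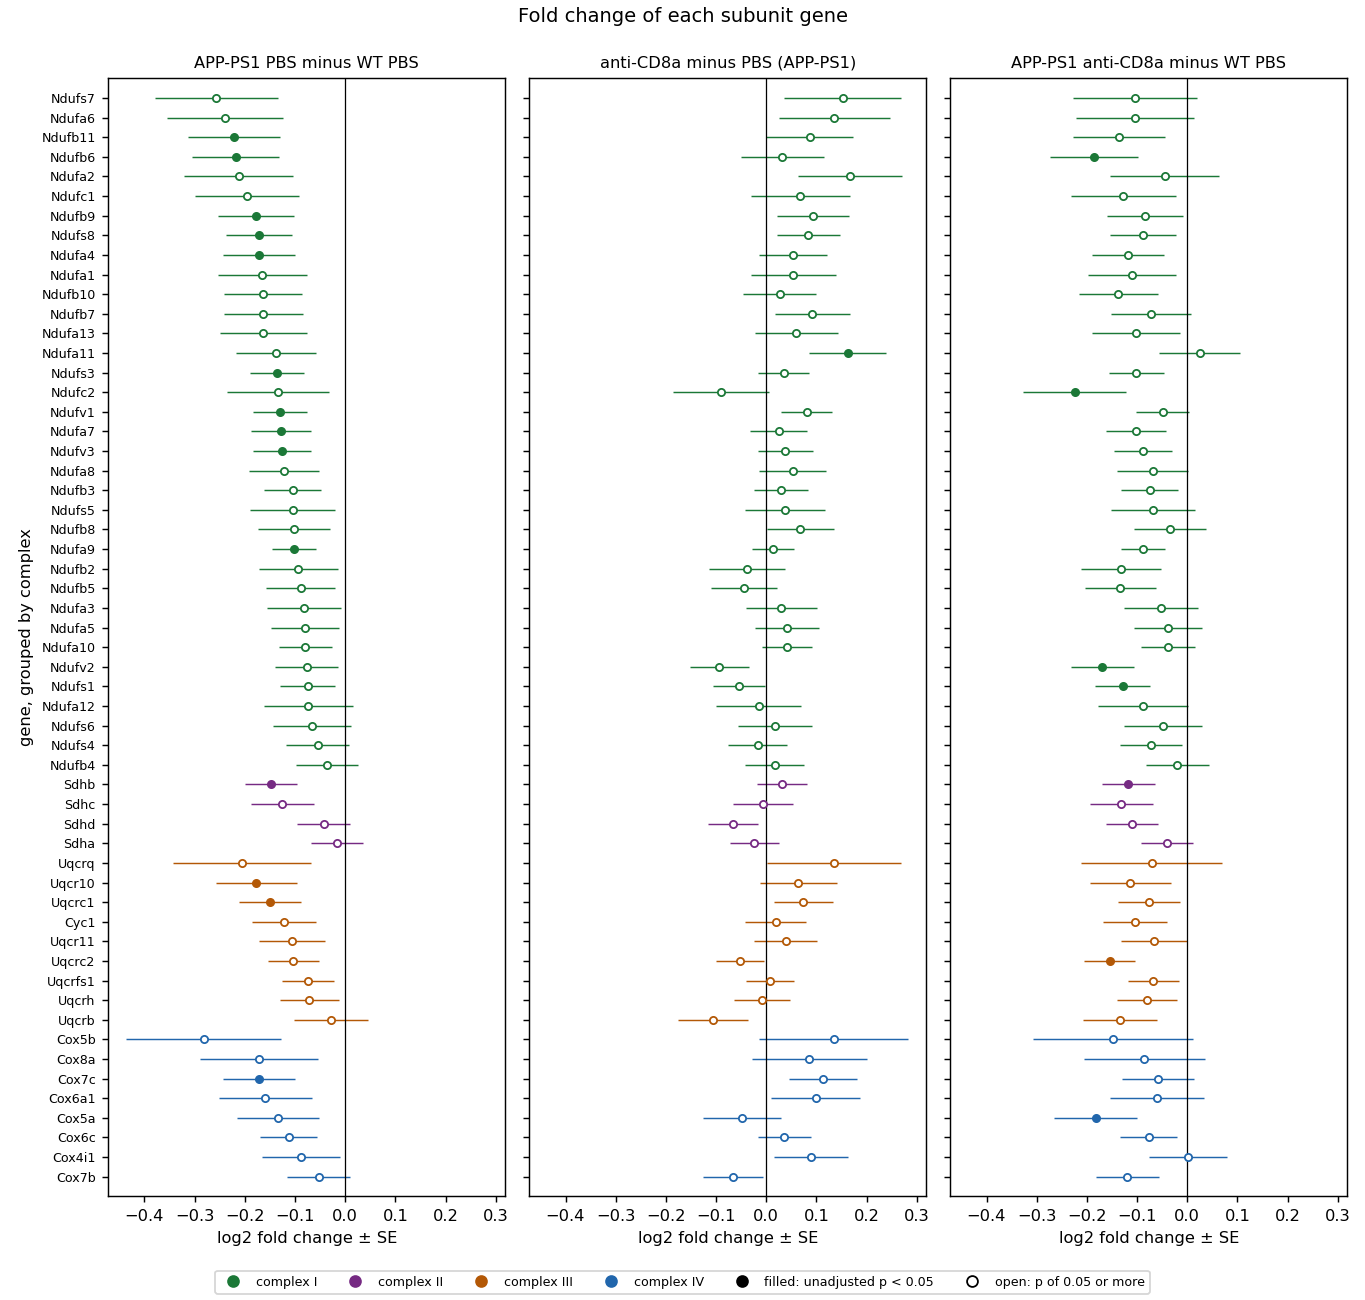
Log2 fold change (± SE, edgeR) of each of the 56 subunit genes in the 3 comparisons, grouped by complex and ordered within a complex by the first comparison. Filled points have an unadjusted p under 0.05; none passed after adjustment. All 56 points lie below 0 in the first panel, 41 lie above 0 in the second, and 54 lie below 0 in the third.

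The second comparison asked what the antibody changes in APP-PS1 mice. Subunit genes had slightly higher estimates in treated mice, 41 of 56 members, where 54.1% of all genes had a higher one. The median log2 fold change was 0.037, or 2.57%, against 0.015 over all genes tested. None of the members passed an adjusted p of 0.05 in edgeR, in which 0% of all genes passed, and none in DESeq2, in which 0.754% did. At an unadjusted p under 0.05, 1 member was higher in edgeR, Ndufa11 (background 7.59%), and 0 in DESeq2, and none was lower by either tool. The groups overlapped in all 56 members, while 0.954% of all genes were higher and 0.843% lower without overlap. Per complex the medians were 0.038 for complex I, -0.015 for complex II, 0.019 for complex III and 0.088 for complex IV.

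Ndufa11, an accessory subunit of the membrane arm of complex I, was at 49.9, 50.2, 39.4, 55.5 and 44.7 CPM in APP-PS1 mice given PBS and at 52.5, 53.2, 55.0, 56.2 and 51.8 CPM in treated mice. The treated values lay close together, above replicates 1, 2, 3 and 5 of the PBS group and level with replicate 4. Its log2 fold change was 0.16 (SE 0.076, BH-adjusted p = 0.374) in edgeR, with an unadjusted p of 0.0495. WT mice had 56.2, 50.9, 53.6, 47.8 and 56.6 CPM, which overlapped both groups. Ndufa2, an accessory subunit of the arm that holds the NADH site, had the largest estimate, 0.17 (SE 0.10). Its PBS values of 38.0, 39.4, 30.0, 45.1 and 28.2 CPM spanned those of treated mice, 38.0, 39.7, 39.8, 44.4 and 42.0 CPM.

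The electron carriers of complex I did not move in 1 direction. Estimates were higher for Ndufv1 at 0.081 (SE 0.050), Ndufs8 at 0.083 (SE 0.063) and Ndufs7 at 0.15 (SE 0.12), and lower for Ndufs1 at -0.054 (SE 0.051) and Ndufv2, an iron-sulfur subunit beside the flavin, at -0.093 (SE 0.059). Ndufv2 was at 95.5, 97.7, 96.4, 92.7 and 93.3 CPM in PBS mice and 89.9, 87.1, 78.0, 107 and 84.8 CPM in treated mice; treated replicates 1, 2, 3 and 5 lay below the whole PBS group and replicate 4 above it. In complex II, Sdhb had 0.031 (SE 0.049), Sdha -0.024 (SE 0.049) and Sdhd, a membrane anchor, -0.067 (SE 0.050). In complex III, Uqcrb had -0.11 (SE 0.070) and Uqcrc2 -0.052 (SE 0.048), against 0.074 (SE 0.059) for Uqcrc1, 0.019 (SE 0.060) for Cyc1 and 0.0069 (SE 0.048) for Uqcrfs1. In complex IV the highest estimates were those of Cox5b at 0.13 (SE 0.15) and Cox7c at 0.11 (SE 0.068), with Cox6a1 at 0.10 (SE 0.089) and Cox4i1 at 0.090 (SE 0.073). None of these values exceeded its error by enough to pass the test.

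Cox4i1 shows how single libraries set these values. Its levels were 362, 362, 372, 325 and 381 CPM for WT, 348, 355, 318, 395 and 292 CPM for APP-PS1 with PBS and 347, 358, 359, 406 and 349 CPM for APP-PS1 with antibody. Treated replicate 4 stood well above the other 4 treated libraries, and the PBS group spanned nearly the whole range. Without treated replicate 4 the median over members was -0.0034 and 25 members had a higher estimate; without PBS replicate 4 the median was 0.082 and 11 members were higher at an unadjusted p under 0.05. That count was 0 without PBS replicates 3 or 5 or any 1 of the 5 treated libraries. The number series gave opposite signs. Among mice numbered from 83 the median difference, treated minus PBS, was -0.083 with 55 of 56 members lower, and among those numbered from 85 it was 0.22 with 54 of 56 higher, on 2 mice against 2. The difference between the series was not tested.

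The third comparison set treated APP-PS1 mice against WT mice given PBS. It shares the WT libraries with the first comparison, so the values are given side by side and not as separate evidence. Estimates were lower in treated mice for 54 of 56 members, where 51.1% of all genes had a lower one, with a median log2 fold change of -0.088, or -5.93%, against -0.0032 over all genes tested. None passed an adjusted p of 0.05 in edgeR, in which 1.94% of all genes passed, and none in DESeq2, in which 2.81% did; the smallest adjusted p was 0.179 in edgeR and 0.0893 in DESeq2. At an unadjusted p under 0.05, 7 members were lower in edgeR (background 5.29%) and 10 in DESeq2. The groups overlapped in all 56 members, while 0.875% of all genes were lower without overlap. Per complex the medians were -0.089, -0.11, -0.080 and -0.081 from complex I to complex IV.

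The gene with the smallest p was Uqcrc2. It was at 203, 192, 209, 207 and 194 CPM in WT mice and at 178, 187, 168, 199 and 185 CPM in treated mice, a log2 fold change of -0.15 (SE 0.051, BH-adjusted p = 0.179) in edgeR. Treated replicate 4 lay within the WT range and the other 4 treated libraries below it; APP-PS1 mice given PBS had 194, 199, 194, 188 and 176 CPM, which overlapped both groups. In complex I the lowest p values were those of Ndufv2 at -0.17 (SE 0.063, BH-adjusted p = 0.265) and Ndufs1 at -0.13 (SE 0.055, BH-adjusted p = 0.345) in edgeR, both iron-sulfur subunits near the NADH site. Ndufs1 was at 179, 163, 173, 184 and 172 CPM in WT and 156, 168, 149.8, 176 and 162 CPM in treated mice; replicates 2 and 4 of the treated group lay in the WT range. Ndufc2, a membrane arm subunit, had the lowest estimate of the comparison at -0.22 (SE 0.10), and Ndufb6 had -0.19 (SE 0.087). Treated replicate 3 was the lowest library for both.

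Sdhb was lower than in WT mice in this comparison as well, at -0.12 (SE 0.052, BH-adjusted p = 0.378) in edgeR, with 84.0, 86.1, 79.8, 92.4 and 91.8 CPM in treated mice. Replicates 4 and 5 of the treated group reached the WT band and replicates 1, 2 and 3 lay below it. Sdha had -0.041 (SE 0.052). In complex III, Cyc1 had -0.10 (SE 0.064) and Uqcrfs1 -0.067 (SE 0.051). In complex IV, Cox5a, a matrix-side subunit, had -0.18 (SE 0.082, BH-adjusted p = 0.388) in edgeR, with 30.7, 31.5, 31.4, 32.0 and 35.6 CPM in WT and 30.0, 27.0, 24.9, 35.6 and 31.2 CPM in treated mice, and treated replicate 4 matched the highest WT library. Cox4i1 was level with WT at 0.0010 (SE 0.077), and Ndufa11, the other member with a higher estimate, was at 0.025 (SE 0.080).

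Single libraries also set the count in this comparison. It was 19 instead of 7 without treated replicate 4, where Ndufv2 passed the edgeR test (adjusted p = 0.0273). It was 2 without treated replicates 1 or 3, 4 without treated replicate 5, and 3 without WT replicates 1, 3 or 4. The median stayed between -0.12 and -0.061 and the number of lower estimates between 51 and 55. Among mice numbered from 83 the median difference was -0.12 with 55 of 56 members lower, and among those numbered from 85 it was -0.014 with 34 lower.

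Subunits of the chain outside the 56 and the genes around them give a frame for these values. In complex V, the ATP synthase, all 16 nuclear genes tested had lower estimates in APP-PS1 than in WT mice given PBS, with a median of -0.12, and 6 were lower at an unadjusted p under 0.05. Atp5g1, which encodes a subunit of the rotating ring, had -0.21 (SE 0.056, adjusted p = 0.111 in edgeR); no gene of complex V passed in edgeR and 1 passed in DESeq2. The complex V median of treated mice was 0.023 relative to the PBS group and -0.10 relative to WT mice. The 12 other nuclear subunits tested, which include tissue-specific isoforms, had medians of -0.081, -0.071 and -0.090 in the 3 comparisons. Factors that assemble complexes I to IV without being part of them had smaller ones: over 39 genes the medians were -0.030, 0.025 and -0.035, with 28 lower in the first comparison.

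The subunits encoded by mitochondrial DNA had estimates of the opposite sign. Of 13 such genes 9 were tested, and all 9 had higher estimates in APP-PS1 than in WT mice given PBS, with a median of 0.32, and again in treated against WT mice, with a median of 0.44. None passed in edgeR or DESeq2, and at an unadjusted p under 0.05 there were 1 and 3 in edgeR. mt-Nd2, a proton-pumping core subunit of complex I, had 0.34 (SE 0.17) and 0.44 (SE 0.18), and mt-Nd3 had 0.67 (SE 0.31) and 0.77 (SE 0.32). Averaged over the 9 genes as for the members, WT libraries 1 to 5 were at -0.022, 0.10, 0.076, -0.13 and -0.66, APP-PS1 PBS libraries at -0.47, -0.39, -0.17, 0.51 and 0.54, and treated libraries at 0.33, -0.21, 0.15, 0.30 and 0.041. The groups overlapped: APP-PS1 PBS replicates 4 and 5 lay above all WT libraries, and replicates 1, 2 and 3 lay below all of them but replicate 5. Group means were -0.13 ± 0.31, 0.0031 ± 0.49 and 0.12 ± 0.22 (SD, n = 5 each), so the medians from the model with labelled sex exceed the differences of these means. In alternatives chosen after seeing the data, the 2 medians were 0.15 and 0.26 without the sex term. They were 0.20 and 0.40 with the sex read from genes, where 0 and 2 genes had an unadjusted p under 0.05 in edgeR. Without the Ttr-rich libraries they were 0.15 and 0.17, and 8 of 9 genes were higher. The first was 0.14 without APP-PS1 PBS replicate 4, and 0.20 and 0.21 without WT replicate 5 and without APP-PS1 PBS replicate 5. With the 2 groups alone the first median was 0.49 and 1 gene passed an adjusted p of 0.05 in edgeR, and 1 gene passed in the third comparison without treated replicate 2. The measurement is weak. All genes of mitochondrial DNA in the count table, these subunits among them, held only 0.0829 to 0.170% of counts. mt-Atp6, mt-Co2, mt-Co3 and mt-Nd4l had at most 8 counts in any library while mt-Cytb had at least 5254. Thus 4 core genes of the chain and of complex V were nearly uncounted.

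Pathways that feed the chain had lower estimates too, with smaller medians. Of 17 genes of the citric acid cycle and pyruvate dehydrogenase, 16 had lower estimates in the APP-PS1 PBS group and 17 in the treated group, each against WT, with medians of -0.063 and -0.073, and 3 and 6 were lower at an unadjusted p under 0.05. Dlst and Mdh2 had the smallest p of this list in the first comparison, with -0.12 (SE 0.041) and -0.15 (SE 0.057). Glycolysis had medians of -0.070, 0.055 and -0.012 over 16 genes, with 15 lower in the first comparison and none of them at an unadjusted p under 0.05. Of 26 mitochondrial ribosome genes, 23 had lower estimates in the first comparison (median -0.078). Proteins of the large cytosolic ribosomal subunit had medians of -0.026, 0.081 and 0.058 over 27 genes, and in treated mice 26 of 27 were higher than in PBS mice. None of the genes in these 4 lists passed an adjusted p of 0.05 in edgeR or DESeq2; at an unadjusted p under 0.05 in edgeR there were 0 to 6 genes per list and comparison.

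**Figure D5:**
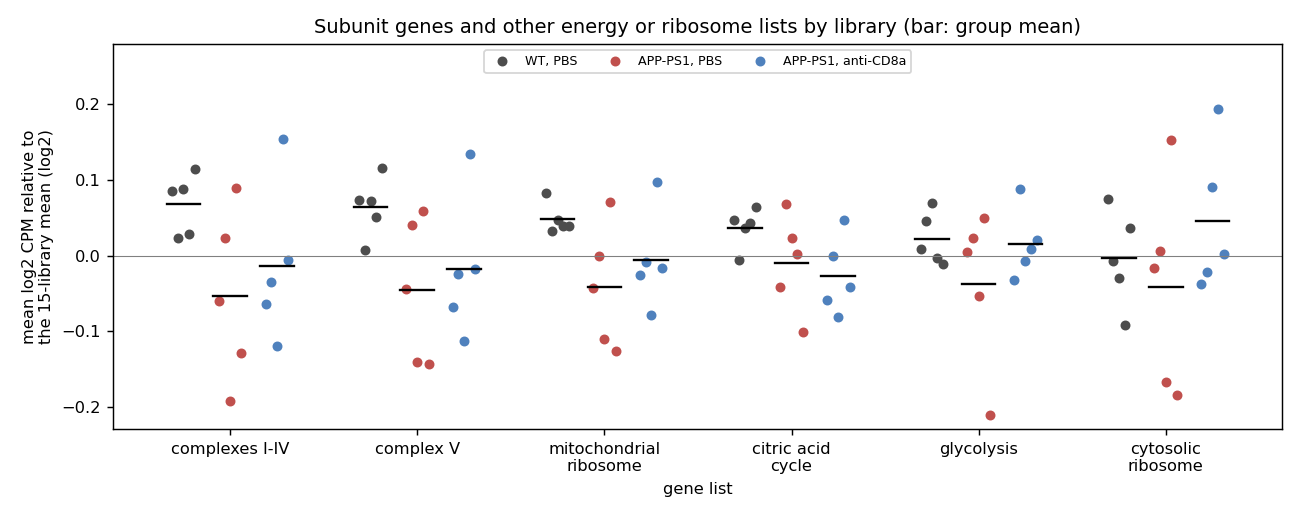
Mean log2 CPM of 6 gene lists in each library, relative to the 15-library mean; points are libraries, colours are groups and black bars are group means (n = 5). WT libraries lie above 0 for complexes I to IV, complex V and the mitochondrial ribosome; for each list the 3 groups overlap.

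Regulators of respiratory genes showed no common direction. Over 16 genes the medians were 0.015, 0.0059 and 0.0040. Esrra, the estrogen-related receptor alpha that acts with the PGC-1 coactivators, had the smallest p of this list in the first comparison at -0.32 (SE 0.10, adjusted p = 0.218 in edgeR), with 27.7 CPM as the mean in APP-PS1 mice and 33.8 CPM in WT mice. Nfe2l2, which encodes the stress-response factor NRF2, had 0.33 (SE 0.14). In treated against PBS-given APP-PS1 mice Creb1 had -0.19 (SE 0.052, adjusted p = 0.223 in edgeR) and Ppargc1a, which encodes PGC-1 alpha, -0.14 (SE 0.058).

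Cell markers moved with genotype in part. Microglial markers were higher in APP-PS1 mice: Csf1r and Cx3cr1 rose on the log2 scale by 0.59 (SE 0.10, adjusted p = 0.0062) and 0.57 (SE 0.10, adjusted p = 0.0103) in edgeR, 2 of 5 markers passing, and 4 of 5 passed in treated against WT mice. The 5 markers together were at 239.9 to 278 CPM in WT libraries, 325 to 399 in APP-PS1 PBS libraries and 325 to 540.0 in treated libraries. Of 5 astrocyte markers 1 passed in the first comparison, Aqp4 at 0.46 (SE 0.10). The 10 neuron markers together were at 7879 to 8656 CPM in WT, 8005 to 8648 in APP-PS1 PBS and 7968 to 8779 in treated libraries, with median log2 fold changes of -0.041, 0.00053 and -0.0047. None passed in edgeR; in DESeq2 Gad1, an enzyme of GABA synthesis, passed as lower in treated against WT mice (adjusted p = 0.00844). Of the 10 neuron markers, 6 had lower and 4 higher estimates in the first comparison, from -0.22 to 0.12. In the second comparison 5 were lower and 5 higher. Rbfox3, the nuclear neuron marker NeuN, had -0.22 (SE 0.074) in the first comparison and 0.21 (SE 0.070) in the second, and Gad1 had -0.15 (SE 0.061) in the first. The 7 choroid plexus markers together ranged from 68.1 to 7048 CPM in WT, 68.4 to 4503 in APP-PS1 PBS and 53.9 to 2050.01 in treated libraries. The part of these cell types in the subunit values was not tested.

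Promoters of the subunit genes were read for short motifs of factors known to bind respiratory genes. RefSeq windows (GRCm38.p6, 250 bases before to 50 after the start) were matched by symbol for 46 of the 56 members, 32 of complex I, 3 of complex II, 5 of complex III and 6 of complex IV. Uqcrc2, Cox6c, Ndufb9, Ndufa2, Uqcrb, Ndufs1, Cyc1, Uqcrq, Sdhc and Cox4i1 had no entry. Exact matches were sought on both strands to GCATGCGC for nuclear respiratory factor 1 (NRF1), CCGGAAGT for ETS factors such as GABP, AAGATGGC for YY1 and GGGCGGGG for SP1. The NRF1 letters were found in 7 members (15.22%) against 3.05% of 27025 genes with a window. The YY1 letters were found in 7 members (15.22%) against 3.19%, the ETS letters in 4 (8.7%) against 4.31%, and the SP1 letters in 7 (15.22%) against 19.56%. At least 1 of the 4 motifs was found in 20 members and none in 26. A match is a description of these letters, not a binding site, and its absence says nothing of the factor.

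The 120 bases before the RefSeq start are printed for 5 members, in lower case with the matches in capitals. GENCODE M21 places some starts elsewhere: its Sdhb, Ndufa8 and Uqcr11 genes begin at 140961203, 36049406 and 80406830. The end of each of these printed stretches, which holds the NRF1 letters, thus lies within the GENCODE gene. Sdhb is shown as the member of smallest p between genotypes and Ndufa11 as that of smallest p between treatments. Ndufa8, Uqcr11 and Uqcrh show matches close to the start or of the ETS kind.
Sdhb (chr4:140961151-140961270, plus strand): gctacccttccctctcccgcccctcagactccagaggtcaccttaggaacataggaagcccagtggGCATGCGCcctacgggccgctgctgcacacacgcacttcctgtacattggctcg
Ndufa11 (chr17:56717642-56717761, plus strand): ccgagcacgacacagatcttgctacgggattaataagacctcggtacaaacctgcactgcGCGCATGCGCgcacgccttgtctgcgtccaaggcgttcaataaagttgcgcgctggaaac
Ndufa8 (chr2:36049339-36049458, minus strand): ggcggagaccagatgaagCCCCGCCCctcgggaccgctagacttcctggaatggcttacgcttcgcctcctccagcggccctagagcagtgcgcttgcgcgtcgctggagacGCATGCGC
Uqcr11 (chr10:80406822-80406941, minus strand): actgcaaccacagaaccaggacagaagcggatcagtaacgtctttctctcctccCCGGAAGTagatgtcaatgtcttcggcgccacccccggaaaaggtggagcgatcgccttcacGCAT
Uqcrh (chr4:116075071-116075190, minus strand): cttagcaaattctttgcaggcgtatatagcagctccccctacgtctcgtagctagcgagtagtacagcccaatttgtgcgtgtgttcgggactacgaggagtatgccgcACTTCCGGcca
In Sdhb the NRF1 match begins 54 bases before the RefSeq start. In Ndufa11 matches on both strands overlap in a palindrome. In Ndufa8 the NRF1 match ends at the last base before the start, and the other capitals are SP1 letters on the opposite strand. In Uqcr11 the ETS match lies on the gene strand, and the 4 capitals at the end are the first letters of an NRF1 match that runs over the start. In Uqcrh the ETS match lies on the opposite strand near the start.

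The YY1 letters shared a place. All 7 matches lay in genes of complex I, which held 32 of the 46 members with a window. They lay on the gene strand, 23 to 39 bases after the RefSeq start, and they contain the letters of a start codon. For Ndufc1, Ndufs4, Ndufs6 and Ndufs7 the GENCODE M21 gene begins further upstream. The 30 bases around each are printed below with the match in capitals, aligned on it.
Ndufa3 (chr7:3617377-3617406, plus strand): cttgtcgccgccaagaacAAGATGGCcggg
Ndufa9 (chr6:126849104-126849133, minus strand): cgtgaggcattgtgggagAAGATGGCggcc
Ndufb8 (chr19:44555393-44555422, minus strand): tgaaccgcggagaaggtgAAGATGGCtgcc
Ndufc1 (chr3:51408922-51408951, minus strand): aggcggagcctgcggaacAAGATGGCgccg
Ndufs4 (chr13:114388048-114388077, minus strand): ctggcgtttgcctacaggAAGATGGCggcg
Ndufs6 (chr13:73328438-73328467, minus strand): gggtcaagggtcaccggcAAGATGGCggcg
Ndufs7 (chr10:80249455-80249484, plus strand): tgtctgaaggccgaggccAAGATGGCggcg
Members with these letters had log2 fold changes from -0.26 (Ndufs7) to -0.055 (Ndufs4) in the comparison of genotypes under PBS, with a median of -0.10. The 7 members with NRF1 letters are Cox6a1, Ndufa6, Ndufa8, Ndufa11, Sdhb, Uqcr11 and Uqcrc1. They ranged from -0.24 (Ndufa6) to -0.11 in that comparison, with a median of -0.15. In treated against PBS-given APP-PS1 mice they ranged from 0.031 to 0.16, with a median of 0.074, and members with YY1 letters had a median of 0.03. In these 2 comparisons the medians were -0.12 and 0.037 with ETS letters and -0.12 and 0.041 with SP1 letters. Over all 56 members they were -0.13 and 0.037. Differences between motifs were not tested.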

How the data were processed

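Poly(A) RNA of brain tissue from 15 mice was sequenced after stranded library preparation, per the labels' protocols. The authors deposited raw read counts per Ensembl gene, 46078 genes in 15 libraries, and the submitters' processing notes name FastQC, Bowtie2 2.2.2, HTSeq 0.11.2, DESeq2 and GRCm38; annotation release and strand setting: not given in the sources used here. Bowtie2 by itself does not align across introns, so reads over exon junctions may have been lost, which bears on genes with short exons. The 5 HTSeq summary lines were left out; reads without a feature were 19.97 to 25.9% per library. Libraries held 17736524 to 36485809 counts.

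The 56 members and the other gene lists were chosen with earlier results of these data known, so no p-value is adjusted over a list. Groups came from the labels; each library is a separate mouse, and libraries of a group differed by more than sampling noise in each of 30 pairs. TMM-scaled CPM, log2 CPM (prior count 2) and tests came from R 4.3.3 and edgeR 4.0.16. The filter filterByExpr kept 18974 genes. Two-sided quasi-likelihood tests (glmQLFTest after glmQLFit) used 1 model of group and labelled sex over all 15 libraries (11 residual degrees of freedom) and Benjamini-Hochberg adjustment over all genes tested, at a threshold of 0.05. The tests were tried on simulated data first. That trial used changes larger than the median difference of the members in any comparison. It does not show whether changes that small would be found. Alternatives were DESeq2 1.42.0, other size factors, no filter, no sex term, the sex read from genes, the number series as a covariate, the 2 groups alone, and leaving out single libraries or the 5 rich in Ttr; scaling by library size alone and the principal transcript length were chosen after seeing the data.

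Named members were, per comparison, the 6, 1, 3 and 3 of smallest p in complexes I to IV, with the highest and lowest per length, the most and least variable and 9 catalytic or electron-carrying subunits; from each other list, the genes of smallest p. Genes named for a motif match or only for an extreme value were chosen after these were seen. Places come from GENCODE M21 (GRCm38). Motif matches are exact and on both strands.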

Additional observations from a re-analysis of the deposited data

Results flagged for a closer look

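In 6 of 99 groups of 5 libraries, 1 library stood far from the other 4: its gap to the nearest library, as a share of the group's whole range, passed Dixon's critical value. Chance flags about 1 in 20 such groups. In treated mice, replicate 4 was high for Cox4i1 (405.6 CPM, gap 0.789 of the range) and Ndufa4 (227 CPM, gap 0.781), and replicate 3 was low for Cyc1 (69.7 CPM, gap 0.730). In WT mice, replicate 5 was high for Cox5a (35.6 CPM, gap 0.713), replicate 2 was low for Cox6c (200.4 CPM, gap 0.866) and replicate 4 was low for Ndufs7 (39.0 CPM, gap 0.879). Of the treated libraries, replicate 4 had the highest and replicate 3 the lowest average over the 56 genes.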

How the results depend on the processing

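All 39 fold changes of named members kept their direction in each of 741 alternative values, which leave out the split by number series. Of these values 1 passed the threshold, Ndufv2 in treated against WT mice (-0.22, adjusted p = 0.0273 in edgeR) without treated replicate 4. The number of members past an adjusted p of 0.05 was 0 under each alternative except there, where it was 1 (range 0 to 1 over single libraries left out). Counts at an unadjusted p under 0.05 were less stable, and the cause was not tested. For APP-PS1 against WT mice given PBS the count was 14, and it was 9 with library size alone, 6 with the 2 groups alone, 1 without the Ttr-rich libraries and 1 to 40 over single libraries left out. For treated against PBS-given APP-PS1 mice it was 1, and 0 with DESeq2, relative log expression factors, library size alone, the 2 groups alone or without the Ttr-rich libraries, and 0 to 11 over single libraries. For treated against WT mice it was 7, and 4 with library size alone, 3 without the sex term, 4 with the number series as a covariate, 16 with the 2 groups alone, 3 without the Ttr-rich libraries and 2 to 19 over single libraries. The median of treated against PBS-given APP-PS1 mice moved to -0.083 within the number series 83 and 0.22 within 85, and 25 to 45 members had a higher estimate over single libraries. No paired analysis was possible because the labels give no replicate numbers: replicates 1 to 5 are only names here and pair no mice. Each member had at least 497 counts in each library; the effect of depth on the calls was not tested.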
